A study of Mus musculus with 16 samples.

Results

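The genes of cytosolic and endoplasmic reticulum NADPH supply were followed in fixed mouse liver through 8 members. G6pdx, Pgd, Rpia, Taldo1 and Tkt encode enzymes of the pentose phosphate pathway, and H6pd its counterpart in the endoplasmic reticulum. Me1 and Idh1 are among the other cytosolic NADPH makers. The members were all probes whose accession in the scanner files mapped to 1 of these symbols, which gave 10 of the 55681 probes of the array. For 7 genes there was 1 probe, and Me1 had 3, numbered here from the brightest to the dimmest. Of these probes, 9 were among the 29690 bright enough to be tested, and the Rpia probe was not.

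All samples came from liver of female mice of the hybrid strain B6C3F1, which is common in toxicology. The mice were bought at 5 to 6 weeks of age, rested for at least 7 days and were then dosed by gavage on 21 days. Furan, a volatile liver toxicant, was dissolved in corn oil and dosed at 8 mg/kg, the controls received the oil without furan, and tissue collection followed the final gavage by 4 h. The 4 groups, with 4 arrays each, were furan livers kept in formalin for 3 weeks, corn oil livers kept for 3 weeks, furan livers kept for 18 h and corn oil livers kept for 18 h, all embedded in paraffin afterwards. RNA came from 2 whole-tissue sections of 10 µm per liver at 3 weeks and from 1 at 18 h, with RNA integrity numbers of 1.3 to 2.4 over all samples. On every array Cy5 marked a liver sample and Cy3 a pool of all samples, so that every value is a log2 ratio of sample over that pool. The 3-week corn oil arrays 2.1 and 2.2 share a sample number and were averaged as 1 sample, which left 15 samples. The labels do not say whether same-numbered livers at the 2 times came from 1 animal.

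NADPH carries the reducing power for fatty acid and sterol synthesis, for cytochrome P450 reactions and for keeping glutathione and thioredoxin reduced. The oxidative branch of the pentose phosphate pathway makes it in the cytosol by oxidising glucose 6-phosphate, while the non-oxidative branch moves carbon between pentoses and glycolytic sugars. In liver, malic enzyme and cytosolic isocitrate dehydrogenase make NADPH from malate and isocitrate. The transcription factor NRF2, which responds to electrophiles, is known in rodents to act on several of these genes.

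Promoter windows from RefSeq, build GRCm38.p6, running from 250 bases before to 50 bases after an annotated start, were at hand for all 8 members, as 11 windows among 32851. The motif TGACNNNGC, the core of the antioxidant response element that NRF2 binds, was searched on both strands and was present in 12.4% of all windows. It occurred once in 3 of the member windows. In the only G6pdx window, chrX:74428831-74429130 on the minus strand, it lay at bases -57 to -49 from the start and read TGACTGAGC on the opposite strand. In the second Me1 window, chr9:86695865-86696164 on the minus strand, it read TGACTCAGC at bases -6 to 3. In the first Pgd window, chr4:149166033-149166332 on the minus strand, it read TGACATTGC at bases 4 to 12, after the annotated start. The second Pgd window, chr4:149166656-149166955, lies upstream of the first on that strand and held no match. The Pgd match is therefore not in the window of the upstream start. The 3 windows with a match are shown 5′ to 3′, with the match in capitals. The H6pd window, chr4:150003187-150003486 on the minus strand, is shown with them. H6pd was the member with the clearest difference between furan and corn oil livers, and its window held no match.
G6pdx: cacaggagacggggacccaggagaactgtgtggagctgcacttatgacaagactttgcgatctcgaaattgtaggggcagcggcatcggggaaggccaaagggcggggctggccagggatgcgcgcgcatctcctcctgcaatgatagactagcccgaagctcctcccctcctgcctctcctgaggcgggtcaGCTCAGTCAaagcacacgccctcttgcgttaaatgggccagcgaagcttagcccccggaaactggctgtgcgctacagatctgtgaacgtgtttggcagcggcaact
Me1: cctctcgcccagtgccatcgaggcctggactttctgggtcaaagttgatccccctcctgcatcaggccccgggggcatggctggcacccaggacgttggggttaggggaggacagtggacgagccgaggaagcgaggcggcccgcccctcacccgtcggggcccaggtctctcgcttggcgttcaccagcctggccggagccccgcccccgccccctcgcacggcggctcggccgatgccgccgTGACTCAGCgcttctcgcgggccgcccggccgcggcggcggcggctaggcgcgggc
Pgd: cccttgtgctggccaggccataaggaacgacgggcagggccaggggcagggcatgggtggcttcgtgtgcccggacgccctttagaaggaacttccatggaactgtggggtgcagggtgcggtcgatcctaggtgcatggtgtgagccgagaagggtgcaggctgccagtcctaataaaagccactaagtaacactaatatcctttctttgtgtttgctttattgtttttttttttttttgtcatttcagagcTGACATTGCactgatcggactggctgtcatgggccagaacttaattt
H6pd: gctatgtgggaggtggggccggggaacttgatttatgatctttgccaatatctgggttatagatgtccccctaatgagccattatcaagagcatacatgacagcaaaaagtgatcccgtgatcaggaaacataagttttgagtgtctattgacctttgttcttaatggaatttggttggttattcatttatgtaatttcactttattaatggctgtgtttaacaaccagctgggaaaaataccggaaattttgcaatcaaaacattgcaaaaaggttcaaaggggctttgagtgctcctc
The E-box CACGTG, searched likewise, was in 7.15% of all windows and in none of the 11, and TATAAA was in 13.6% of all and in none of the 11. A match is a stretch of letters in the window, and none of these sites was measured here.

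Before the results, the arrays as a whole are described briefly. The percentage of probes with a sample signal well above background was 35.9% to 41.4% in furan and 32.3% to 35.8% in corn oil livers at 3 weeks, and 51.9% to 55.2% in furan and 44.3% to 50.1% in corn oil livers at 18 h. At 18 h it was 6.40 points higher with furan (exact permutation test, two-sided, p = 0.0286, the smallest 4 against 4 samples can give). Of 6 listed hepatocyte markers 5 were tested (Alb, Apoa1, Ttr, Cps1 and Serpina1a), and all 5 were well above background on every array. Their summed log2 ratio lay between -5.75 and -3.01 in furan and between -4.41 and -1.93 in corn oil livers at 3 weeks, and between -1.06 and -0.39 in furan and between 3.23 and 4.00 in corn oil livers at 18 h. The 18 h ranges did not overlap, and all 5 markers were called lower with furan there, where 26.8% of all tested probes were. Their median log2 difference was -0.84. No spot was saturated.

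In livers fixed for 18 h, furan changed the members in both directions. H6pd rose, as did G6pdx and Tkt by less, while Idh1 and the brightest Me1 probe fell. Pgd, Taldo1 and the second Me1 probe did not pass the test, and the dimmest Me1 probe was called higher. Of the 9 tested probes 4 were called higher and 2 lower (limma with the slide as a term, Benjamini-Hochberg over all tested probes, adjusted p under 0.05), where 20.4% of all tested probes were called higher and 26.8% lower. The groups did not overlap for 6 of the 9, against 39.2% of all tested probes. The 4 called higher and these 6 include the dimmest Me1 probe. It was bright enough to be tested only through the 18 h furan arrays, so its call lends no support. The median log2 difference of the 9 was 0.28, the value of the second Me1 probe, which was not called, against -0.05 over all tested probes. This median counts the dimmest Me1 probe too, so it lends no support either. Because whole sections were used, fewer cells of a type and less RNA per cell cannot be told apart.

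**Figure D1:**
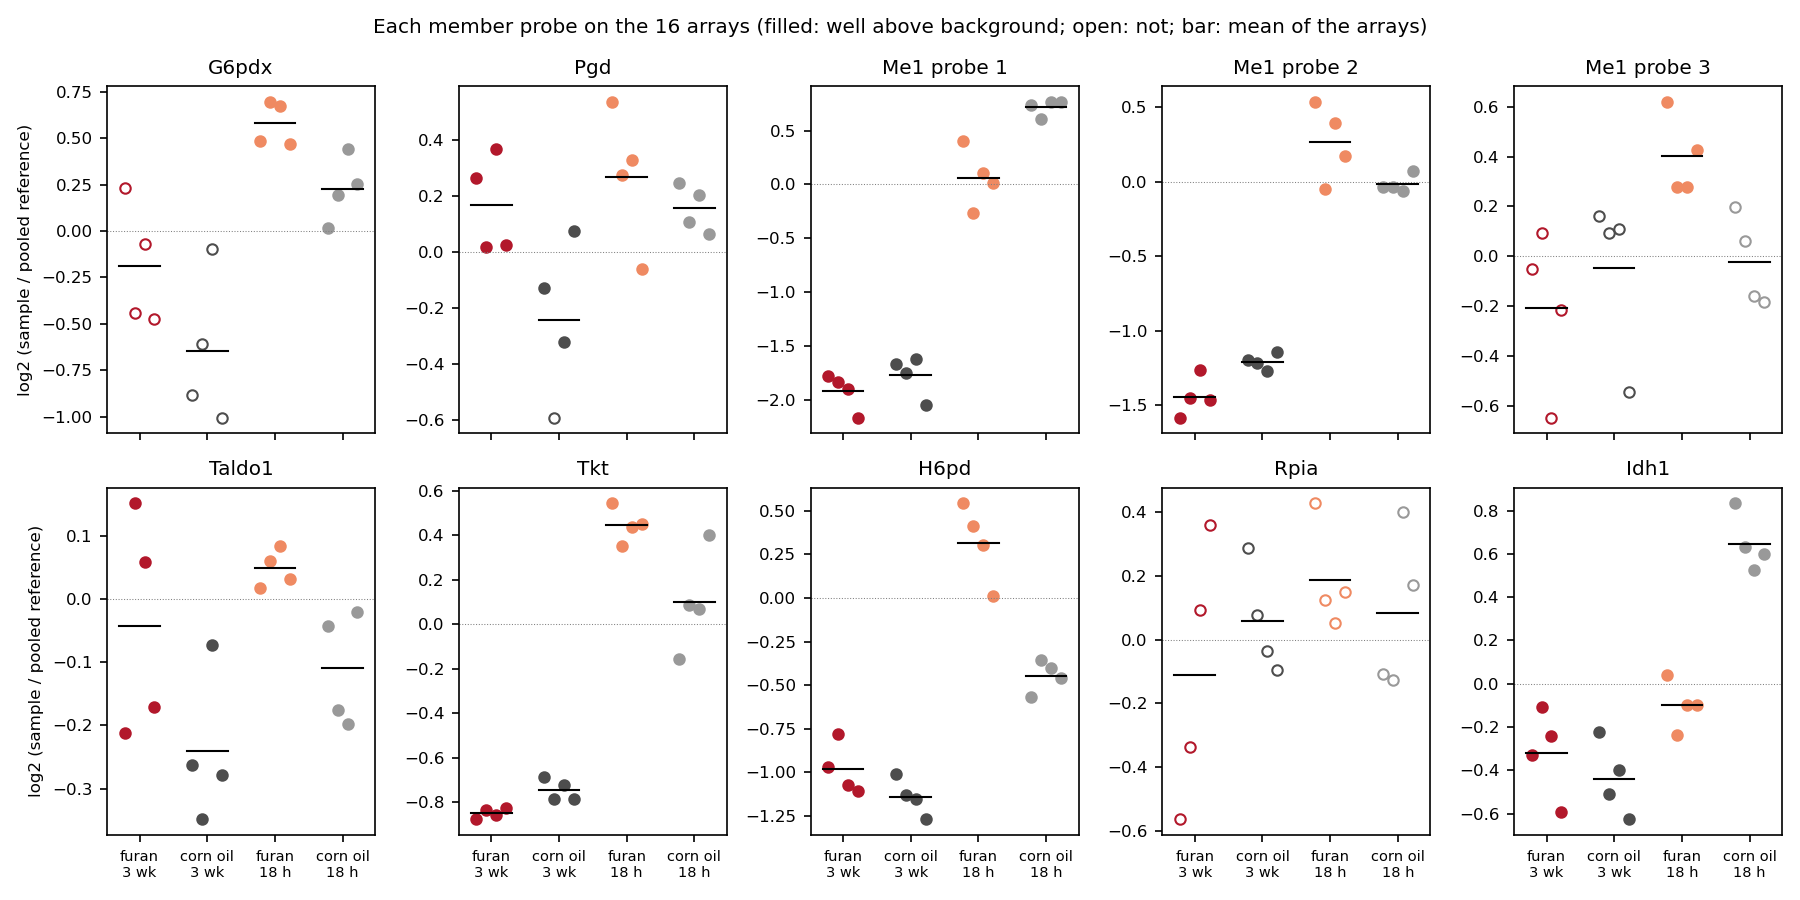
Log2 ratio of sample over pooled reference (vertical axes, one scale per panel) for each of the 10 member probes on the 16 arrays, by group; each point is 1 array, filled where the probe was well above background, and bars are means over the 4 arrays of a group. H6pd and Idh1 at 18 h show furan arrays apart from corn oil arrays, and most panels show the 3-week arrays below the 18 h arrays.

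G6pdx encodes glucose-6-phosphate dehydrogenase, the first and rate-limiting step of the oxidative branch. Its log2 ratio was 0.49, 0.70, 0.67 and 0.47 in furan livers 41, 42, 43 and 44, and 0.02, 0.19, 0.44 and 0.25 in corn oil livers 2, 3, 4 and 6, all fixed for 18 h. Every furan liver was above every corn oil liver, by a margin of 0.47 over 0.44 for the closest pair. The probe was dim, with raw Cy5 spot signals of 293.5, 361, 325 and 358 in these furan livers and 200, 236, 295.5 and 318.5 in these corn oil livers, over local backgrounds of 78 to 101. The difference was 0.35 (SE 0.10), which is 1.28-fold (limma adjusted p = 0.0166). It lost the call without corn oil liver 3 (0.32, adjusted p = 0.0520) and without furan liver 43 (0.30, adjusted p = 0.0589), and on each slide alone (0.27, adjusted p = 0.201, on slide 1 and 0.44, adjusted p = 0.0612, on slide 2) and with all groups in 1 fit (0.35, adjusted p = 0.108), against a range of 0.00463 to 0.201 over the alternatives. G6pd2, an intronless mouse copy of this gene, has its own probe, which was too dim to test. Probe sequences were not analysed here, so cross-hybridisation between the copies was not tested.

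Pgd encodes 6-phosphogluconate dehydrogenase, which makes the second NADPH of the oxidative branch. At 18 h it lay between -0.06 and 0.54 in furan livers and between 0.06 and 0.25 in corn oil livers. The furan range enclosed the corn oil range. The difference of 0.11 (SE 0.12) did not pass the test (limma adjusted p = 0.436), with an interval of -0.14 to 0.37 (95%, limma), while with median centring it was 0.42 and passed (adjusted p = 0.00628, in a range of 0.00628 to 0.933 over the alternatives).

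H6pd makes NADPH in the lumen of the endoplasmic reticulum, where 11β-hydroxysteroid dehydrogenase type 1 uses it. Its log2 ratio was 0.54, 0.41, 0.30 and 0.01 in furan livers 41 to 44, and -0.57, -0.36, -0.40 and -0.46 in corn oil livers 2, 3, 4 and 6 at 18 h. The lowest furan liver, 44, was still above the highest corn oil liver, 3. H6pd was 0.76 (SE 0.09) higher on the log2 scale with furan, which is 1.70-fold (limma adjusted p = 0.000134). The difference was 0.86 on slide 1 alone and 0.67 on slide 2 alone (limma adjusted p = 0.00596 and 0.0176), and it kept its call under all 12 alternatives and without each of the 8 samples. Its size reached 1.34 with median centring in place of loess.

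The non-oxidative branch was measured by Tkt and Taldo1. Tkt encodes transketolase, and its log2 ratio at 18 h was 0.54, 0.35, 0.44 and 0.45 in furan livers 41 to 44, and -0.16, 0.09, 0.07 and 0.40 in corn oil livers 2, 3, 4 and 6. Corn oil liver 6 lay above furan liver 42, so the groups overlapped. Tkt was 0.34 (SE 0.12) higher with furan, which is 1.27-fold (limma adjusted p = 0.0315). The call was lost without any 1 of corn oil livers 2, 3 and 4 and furan livers 41, 43 and 44, with differences of 0.24 to 0.35 and adjusted p up to 0.0877, on each slide alone (0.37 on slide 1 and 0.32 on slide 2), with the scanner's log ratio (0.43) and without the filter on dim probes (adjusted p = 0.0664). Taldo1 encodes transaldolase and varied little, from 0.02 to 0.08 in furan livers and from -0.20 to -0.02 in corn oil livers. These ranges did not overlap, but the difference of 0.16 (SE 0.08) missed the threshold (limma adjusted p = 0.119; interval -0.01 to 0.33). It passed with median centring, at 0.71 (adjusted p = 2.47e-05, in a range of 2.47e-05 to 0.600 over the alternatives), and with the deposited table, at 0.23.

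Rpia encodes ribose 5-phosphate isomerase, which feeds the non-oxidative branch. Its probe was not well above background on any of the 16 arrays, with raw Cy5 signals of 126 to 186 over local backgrounds of 75 to 94.5, and no difference is given for it.

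Me1 encodes cytosolic malic enzyme, and its 3 probes carry the same accession but did not move together at 18 h. For the brightest probe the log2 ratio was 0.40, -0.27, 0.10 and 0.02 in furan livers 41 to 44, and 0.74, 0.61, 0.77 and 0.76 in corn oil livers 2, 3, 4 and 6. All furan livers lay below all corn oil livers. This probe fell by 0.66 (SE 0.13), which is 1.58-fold lower with furan (limma adjusted p = 0.00201). With median centring in place of loess the difference was -0.13 and was no longer called (adjusted p = 0.434, in a range of 0.000644 to 0.434 over the alternatives), and it was -0.62 on slide 1 alone (adjusted p = 0.0557) and -0.69 on slide 2 alone (adjusted p = 0.00971).
The second Me1 probe read 0.54, -0.05, 0.39 and 0.17 in the furan livers, and -0.03, -0.03, -0.06 and 0.07 in the corn oil livers. Its ranges overlapped through furan liver 42, and its difference of 0.28 (SE 0.12) did not pass (limma adjusted p = 0.0804), though it did without that liver (0.39, adjusted p = 0.0163) with median centring (0.82, adjusted p = 3.29e-06) and with the deposited table (0.37, adjusted p = 0.0149). The third probe read 0.62, 0.28, 0.28 and 0.43 in the furan livers, and 0.20, 0.06, -0.16 and -0.18 in the corn oil livers. It was well above background on all 4 furan arrays and on none of the 4 corn oil arrays, so only a bound holds, with furan at least 1.22-fold higher (limma adjusted p = 0.0126). Because the probe entered the test only through these furan arrays, where it was high, its call is not support for a rise. A bound of this kind sets the brighter group's mean normalized Cy5 signal against, on each array of the dimmer group, the higher of the probe's own signal and the lowest signal among probes well above background. The third probe was called on neither slide alone (adjusted p = 0.0502 on slide 1 and 0.145 on slide 2). The direction of Me1 at 18 h therefore depended on the probe.

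Idh1 encodes the cytosolic, NADP-dependent isocitrate dehydrogenase. Its log2 ratio at 18 h was 0.04, -0.24, -0.10 and -0.10 in furan livers 41 to 44, and 0.83, 0.63, 0.53 and 0.60 in corn oil livers 2, 3, 4 and 6. All 4 furan livers lay below the lowest corn oil liver by more than the range within either group. Idh1 fell by 0.75 (SE 0.10), which is 1.68-fold lower with furan (limma adjusted p = 0.000168). It kept its call under all 12 alternatives and without each of the 8 samples, at -0.68 on slide 1 alone and -0.82 on slide 2 alone (adjusted p = 0.0144 and 0.00815). Its smallest size was -0.33, with median centring in place of loess.

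**Figure D2:**
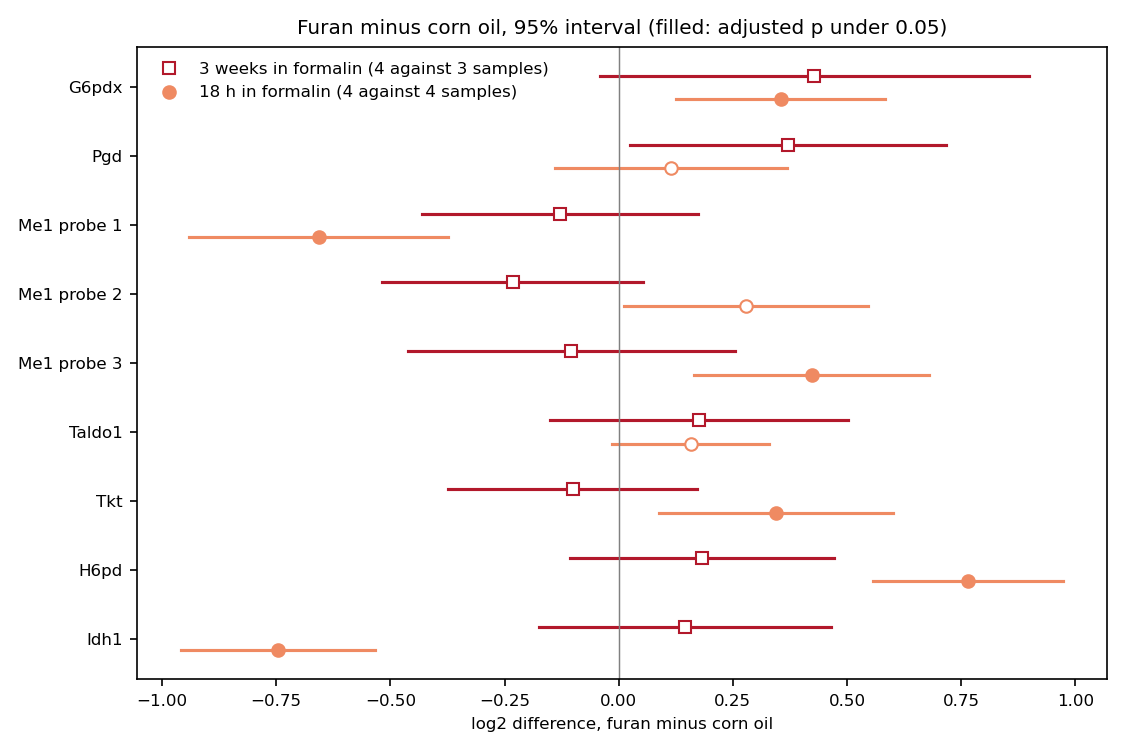
Log2 difference of furan minus corn oil (horizontal axis) for the 9 tested member probes, with 95% intervals from limma; squares are livers fixed for 3 weeks, circles livers fixed for 18 h, and filled symbols passed the adjusted threshold. Only 18 h symbols are filled, to the right for G6pdx, Me1 probe 3, Tkt and H6pd and to the left for Me1 probe 1 and Idh1; G6pdx and Me1 probe 3 were not well above background in either group at 3 weeks, nor Me1 probe 3 in corn oil livers at 18 h, so these positions are fitted values and not measured sizes.

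The hepatocyte markers named above moved with these results at 18 h, in the direction of Idh1 and of Me1 probe 1, and the share of probes above background moved in the direction of H6pd, G6pdx and Tkt. Among listed markers of other cells at 18 h, the calls higher and lower were 0 and 2 of 6 tested macrophage genes, 2 and 3 of 5 endothelial, 1 and 3 of 6 stellate or fibroblast, 0 and 1 of 2 bile duct, 0 and 1 of 3 lymphocyte and 0 and 3 of 4 erythroid genes, with no call for the 1 tested neutrophil gene. Over all tested probes 20.4% were called higher and 26.8% lower at 18 h. At 3 weeks none of the marker genes was called. Their part in the member differences was not tested.

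In livers fixed for 3 weeks, no member was called between furan and corn oil. This stands against a background of 0.121% of all tested probes, 36 in number, that passed the same limma test, so the members had little room to stand out. Without adjustment, 4109 of the 29690 tested probes had p under 0.05, as did 1 of the 9 member probes, a count near that share. That member was Pgd, which read 0.26, 0.02, 0.37 and 0.02 in furan livers 41 to 44, and -0.36, -0.32 and 0.07 in corn oil livers 2, 4 and 6. Corn oil liver 6 lay among the furan livers. The difference was 0.37 (SE 0.16, interval 0.02 to 0.72), with a limma p of 0.0383 and an adjusted p = 0.329. On 1 of the 4 corn oil arrays Pgd was not well above background.

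The 2 members with the clearest calls at 18 h were close together at 3 weeks. H6pd read -0.97, -0.78, -1.07 and -1.10 in furan livers 41 to 44, and -1.07, -1.15 and -1.27 in corn oil livers 2, 4 and 6. These ranges overlapped, and the difference was 0.18 (SE 0.13, interval -0.11 to 0.47, limma adjusted p = 0.583). With median centring it was 0.58 and passed (adjusted p = 0.0262, in a range of 0.0262 to 0.878 over the alternatives). Idh1 read -0.33, -0.11, -0.24 and -0.59 in the furan livers, and -0.37, -0.40 and -0.63 in the corn oil livers. Its groups overlapped too, with a difference of 0.14 (SE 0.14, interval -0.18 to 0.46, limma adjusted p = 0.715).

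Tkt was the 1 member whose 3-week groups did not overlap, which was the case for 13.4% of all tested probes. Its furan livers lay between -0.88 and -0.83 and its corn oil livers between -0.78 and -0.72, and the difference of -0.10 (SE 0.12) did not pass (limma adjusted p = 0.778). Taldo1 lay between -0.21 and 0.15 in furan livers and between -0.31 and -0.07 in corn oil livers, a difference of 0.18 (SE 0.15, adjusted p = 0.648). The brightest Me1 probe lay between -2.17 and -1.78 in furan livers and between -2.05 and -1.62 in corn oil livers, a difference of -0.13 (SE 0.14, adjusted p = 0.734). For the second Me1 probe the difference was -0.23 (SE 0.13, adjusted p = 0.461). G6pdx and the third Me1 probe were not well above background on any 3-week array, so no fold is given for them there; limma's adjusted p was 0.402 for G6pdx and 0.834 for the Me1 probe.

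Whether the effect of furan depended on the time in formalin was tested as the difference of the 2 furan effects, 3 weeks minus 18 h, over all 15 samples. Among the 9 member probes 2 were called, H6pd and Idh1, where 12.8% of all tested probes were called in either direction. The H6pd effect was 0.18 at 3 weeks and 0.76 at 18 h, a difference of -0.58 (SE 0.14, limma adjusted p = 0.0155). The Idh1 effect was 0.14 at 3 weeks and -0.75 at 18 h, a difference of 0.89 (SE 0.17, limma adjusted p = 0.00437). On each slide alone neither passed, at -0.65 and -0.56 for H6pd (adjusted p = 0.153 and 0.249) and at 0.77 and 0.97 for Idh1 (adjusted p = 0.137 and 0.110) on slides 1 and 2. With the scanner's own log ratio H6pd was at -0.42 and was no longer called (adjusted p = 0.155).

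The Me1 probes differed in sign here as well, and none was called in the fit described. The brightest probe had a difference of 0.53 between the furan effects (SE 0.20, limma adjusted p = 0.0912) and the second one of -0.51 (SE 0.17, adjusted p = 0.0587), while the third, below background in 3 of the 4 groups, had an adjusted p of 0.141. Tkt came to -0.44 (SE 0.16, limma adjusted p = 0.0762). With median centring the second Me1 probe (-0.80) and Tkt (-0.74) passed, as they did with the deposited table (-0.58 and -0.52), and Tkt also passed without 18 h corn oil liver 6 (-0.55, adjusted p = 0.0216). The brightest Me1 probe passed without background subtraction (0.57, adjusted p = 0.0339) and without 18 h furan liver 41 (0.63, adjusted p = 0.0497). The second one also passed with arrays 2.1 and 2.2 separate (adjusted p = 0.0419) and without 18 h furan liver 42 (-0.61, adjusted p = 0.0289), and the third with the scanner's log ratio (adjusted p = 0.0483). Pgd, G6pdx and Taldo1 had adjusted p of 0.429, 0.876 and 0.952, and intervals wide enough to hold sizeable differences either way, such as -0.31 to 0.34 for Taldo1.

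The time in formalin itself went with far lower ratios for most members. In corn oil livers 7 of the 9 probes were called lower at 3 weeks than at 18 h, where 30.8% of all tested probes were called lower, and in furan livers 6 of the 9, where 32.0% of all tested probes were. Both counts include G6pdx, and the furan count includes the third Me1 probe. These probes were bright enough to be tested only through 18 h arrays, so their time calls lend no support. Probes not well above background in 1 of the groups have only a bound, so the medians take G6pdx, and in furan livers the third Me1 probe, at their bounds given below. On that basis the median log2 difference was -0.78 over 8 probes in corn oil livers, leaving out the third Me1 probe, which was not well above background at either time, against 0.00 over all tested probes. In furan livers it was -0.68 over the 9, which is the bound of G6pdx itself, against 0.03. Both medians count G6pdx, and the furan median counts the third Me1 probe too, so neither median lends support. No member was called higher at 3 weeks in either. The number of sections changed along with the time, so time and sections cannot be told apart, and these comparisons share their samples with the furan comparisons.

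Me1 had the largest of these differences among the members. Its brightest probe read -1.78, -1.84, -1.90 and -2.17 in furan livers 41 to 44 and -1.71, -1.62 and -2.05 in corn oil livers 2, 4 and 6 at 3 weeks, far under the 18 h values given above. It was 3.96-fold lower at 3 weeks in furan livers (log2 difference -1.99, SE 0.13, limma adjusted p = 2.26e-09) and 5.72-fold lower in corn oil livers (-2.52, SE 0.15, adjusted p = 4.43e-10). The second Me1 probe lay between -1.58 and -1.27 in furan livers and between -1.27 and -1.14 in corn oil livers at 3 weeks, with differences from 18 h of -1.70 (SE 0.12) in furan and -1.19 (SE 0.12) in corn oil livers, both called. For this probe the larger difference was in furan livers, and for the brightest one in corn oil livers. The third probe was well above background only in the 18 h furan livers, which were at least 1.24-fold higher than the 3-week furan livers (limma adjusted p = 0.00256). It was tested only through those 18 h arrays, so this call lends no support.

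H6pd and Tkt also differed strongly between the times. H6pd was lower at 3 weeks, with log2 differences of -1.30 (SE 0.10) in furan livers and -0.72 (SE 0.11) in corn oil livers. Tkt was lower too, with -1.29 (SE 0.11) in furan livers and -0.85 (SE 0.12) in corn oil livers. All 4 differences were called (limma adjusted p of 2.01e-05 or smaller). Idh1 was called lower in corn oil livers (-1.11, SE 0.13, adjusted p = 1.13e-06), while in furan livers its difference of -0.22 (SE 0.12) did not pass (adjusted p = 0.106), though it did with median centring, the scanner's log ratio and the deposited table, at -1.07 in the first of these. That contrast is the same quantity as the difference of its furan effects given above.

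G6pdx was below background on all 8 arrays at 3 weeks and above it on all 8 at 18 h, so that 18 h furan livers were at least 1.60-fold higher than 3-week furan livers and 18 h corn oil livers at least 1.32-fold higher than 3-week corn oil livers (limma adjusted p = 0.000740 and 0.000789). Its probe was bright enough to be tested only through the 18 h arrays, so these calls lend no support. On slide 1 alone the furan call of G6pdx was lost (adjusted p = 0.0587), as was that of the third Me1 probe (0.0548). Pgd passed in corn oil livers (-0.36, SE 0.15, adjusted p = 0.0471) and not in furan livers (-0.10, SE 0.14, adjusted p = 0.529). Its corn oil call was lost without 6 of the 7 samples taken 1 at a time and remained only without 3-week liver 6, with adjusted p from 0.0106 to 0.167. It was also lost without background subtraction (adjusted p = 0.0885), without the filter on dim probes (0.0839) and on slides 1 and 2 alone (0.0878 and 0.177). Taldo1 passed in neither (-0.09, SE 0.10, in furan and -0.11, SE 0.11, in corn oil livers). With median centring Taldo1 was called lower in both, at -0.80 in furan and -0.62 in corn oil livers, and Pgd in furan livers at -0.82.

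**Figure D3:**
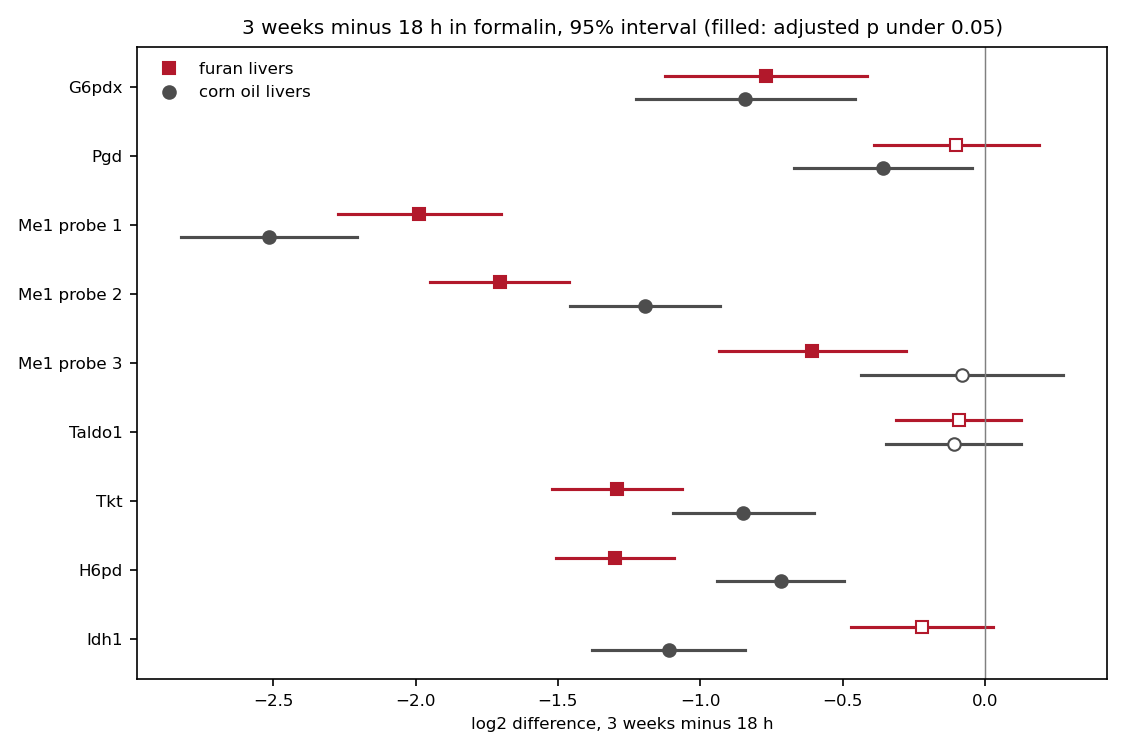
Log2 difference of 3 weeks minus 18 h in formalin (horizontal axis) for the 9 tested member probes with 95% intervals from limma; squares are furan livers, circles corn oil livers, and filled symbols passed the adjusted threshold. Me1 probe 1 lies farthest left at -1.99 in furan and -2.52 in corn oil livers, and Taldo1 lies near 0 in both; G6pdx and Me1 probe 3 were not well above background at 3 weeks, so their positions are fitted values and not measured sizes.

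By group means, both 3-week groups lay below both 18 h groups for every tested member probe except those of Pgd and Taldo1. Among them, G6pdx and the third Me1 probe were not well above background at 3 weeks. The brightest Me1 probe averaged -1.92 ± 0.17 in furan and -1.79 ± 0.23 in corn oil livers at 3 weeks, and 0.06 ± 0.28 in furan and 0.72 ± 0.07 in corn oil livers at 18 h (SD, n = 4, 3, 4 and 4). H6pd averaged -0.98 ± 0.15 in furan and -1.16 ± 0.10 in corn oil livers at 3 weeks, and 0.32 ± 0.23 in furan and -0.45 ± 0.09 in corn oil livers at 18 h. For Idh1 the means were -0.32 ± 0.20 in furan and -0.46 ± 0.14 in corn oil livers at 3 weeks, and -0.10 ± 0.11 in furan and 0.65 ± 0.13 in corn oil livers at 18 h, so that the 18 h corn oil group stood alone at the top and the other 3 means lay between -0.46 and -0.10. Taldo1 means were highest in 18 h furan livers (0.05 ± 0.03) and lowest in 3-week corn oil livers (-0.22 ± 0.13), and none of the tested pairs of groups differed past the threshold.

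Across the 15 samples, the gene whose brightest probe had the profile most like a member was found among 13051 genes by Pearson's r, as a description without a test, since all samples share the split between the times and the reference. For Me1 (brightest probe) it was Gm8709 (0.99), followed by Cyp2d22 (0.99). For Tkt the nearest were Asgr1 and Bbof1 (both 0.99), for H6pd Rbm39 (0.99) and Ergic3 (0.98), and for Idh1 Kansl2 (0.97) and Masp1 (0.96). G6pdx came closest to Timm17a (0.95) and Nmd3 (0.93), Taldo1 to Elovl4 (0.89) and Gapvd1 (0.86), and Pgd to Ankrd11 (0.83) and Eci3 (0.82).

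Other genes of the pathway and of NADPH metabolism were read from lists, each gene by its brightest tested probe. Of 13 further pentose phosphate genes 9 were tested, and at 18 h 4 were called higher and 3 lower with furan, with a median log2 difference of 0.01 against -0.05 over all tested probes. Of all tested probes 20.4% were called higher and 26.8% lower. Pgls, which hydrolyses the lactone between the G6pdx and Pgd steps, fell by 0.78 (SE 0.08, limma adjusted p = 6.21e-05), and Shpk, a sedoheptulose kinase, fell by 0.77 (SE 0.09, adjusted p = 0.000126). Prps1l3, a phosphoribosyl pyrophosphate synthetase gene copy, rose by 0.75 (SE 0.10), and Prpsap2, a synthetase-associated protein, by 0.72 (SE 0.12). Prps1l3 is a near copy of Prps1, and cross-hybridisation between them was not tested. Of the 12 other NADPH makers and NAD kinases 7 were tested and 2 were called, both higher: Nadk2, the mitochondrial NAD kinase, by 0.38 (SE 0.08) and Mthfd1, a folate enzyme, by 0.23 (SE 0.08, adjusted p = 0.0371). A count of 2 in 7 was near the 20.4% of all tested probes called higher. Me3 (-0.14, SE 0.12) and Aldh1l1 (-0.07, SE 0.12) did not pass.

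Among 18 genes of enzymes that use NADPH, 10 were called higher and 2 lower with furan at 18 h, with a median of 0.42. For this list and the next, the shares over all tested probes were 20.4% higher and 26.8% lower. Txnrd1, which reduces thioredoxin, rose by 0.91 (SE 0.09, limma adjusted p = 3.09e-05), and the carbonyl reductases Cbr1 and Cbr3 rose by 0.68 (SE 0.08) and 0.97 (SE 0.12). Among 9 tested of 12 NRF2 target genes, which share Txnrd1, Nqo1 and Gsr with the list before, 8 were called higher and none lower, with a median of 0.88. Osgin1, a stress-induced growth inhibitor, rose by 1.40 (SE 0.17), Srxn1, a sulfiredoxin, by 0.93 (SE 0.11), and Gstm1, a glutathione transferase, by 0.72 (SE 0.08), while the other Gstm1 probe stood at 0.12.

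Genes listed under glucose 6-phosphate supply, which include some that carry or hydrolyse it, and genes of fat synthesis made up the remaining lists at 18 h. Of 12 listed supply genes 10 were tested and 2 were called, both higher, with a list median of 0.06. These were G6pc3, a glucose 6-phosphatase, by 0.41 (SE 0.10) and Slc37a4, the glucose 6-phosphate carrier, by 0.49 (SE 0.13). Neither of these 2 makes glucose 6-phosphate. Fbp1 (-0.12, SE 0.09) and Pgm1 (0.10, SE 0.08) did not pass, and neither did G6pc, the main liver glucose 6-phosphatase (-0.05, SE 0.10), which is named here after its values were seen. Of 12 lipogenic genes none was called higher and 3 lower, with a median of -0.22. Over all tested probes 20.4% were called higher and 26.8% lower, so 2 of 10 supply genes higher and 3 of 12 lipogenic genes lower were near the background. Pklr, liver pyruvate kinase, fell by 1.22 (SE 0.15, limma adjusted p = 0.000131), Thrsp, a lipogenic regulator, by 0.93 (SE 0.23) and Slc25a1, the mitochondrial citrate carrier, by 0.58 (SE 0.08), and Scd1 stood at -0.59 (SE 0.23, adjusted p = 0.0540). With median centring Slc25a1 (-0.05) and Thrsp (-0.40) were no longer called.

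At 3 weeks none of the genes on these 6 lists was called, as for the members. The list medians there were 0.09 for the further pentose phosphate genes, 0.05 for the other makers, 0.22 for the users, 0.07 for glucose 6-phosphate supply, -0.05 for the lipogenic genes and 0.48 for the NRF2 targets, against 0.00 over all tested probes. Nearest to the threshold were Srxn1 (0.81, SE 0.14, limma adjusted p = 0.0683), Gstm1 (0.78, SE 0.14, adjusted p = 0.0752) and Osgin1 (1.12, SE 0.21, adjusted p = 0.0801), each of them called when all 4 groups shared 1 fit. The other Gstm1 probe stood at 0.27 at 3 weeks. In the other lists the smallest p belonged to Rpe (0.47, adjusted p = 0.226), Mthfd1l (0.50, adjusted p = 0.234), Txnrd1 (0.48, adjusted p = 0.158), G6pc3 (0.28, adjusted p = 0.383) and Scd1 (-0.60, adjusted p = 0.241).

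**Figure D4:**
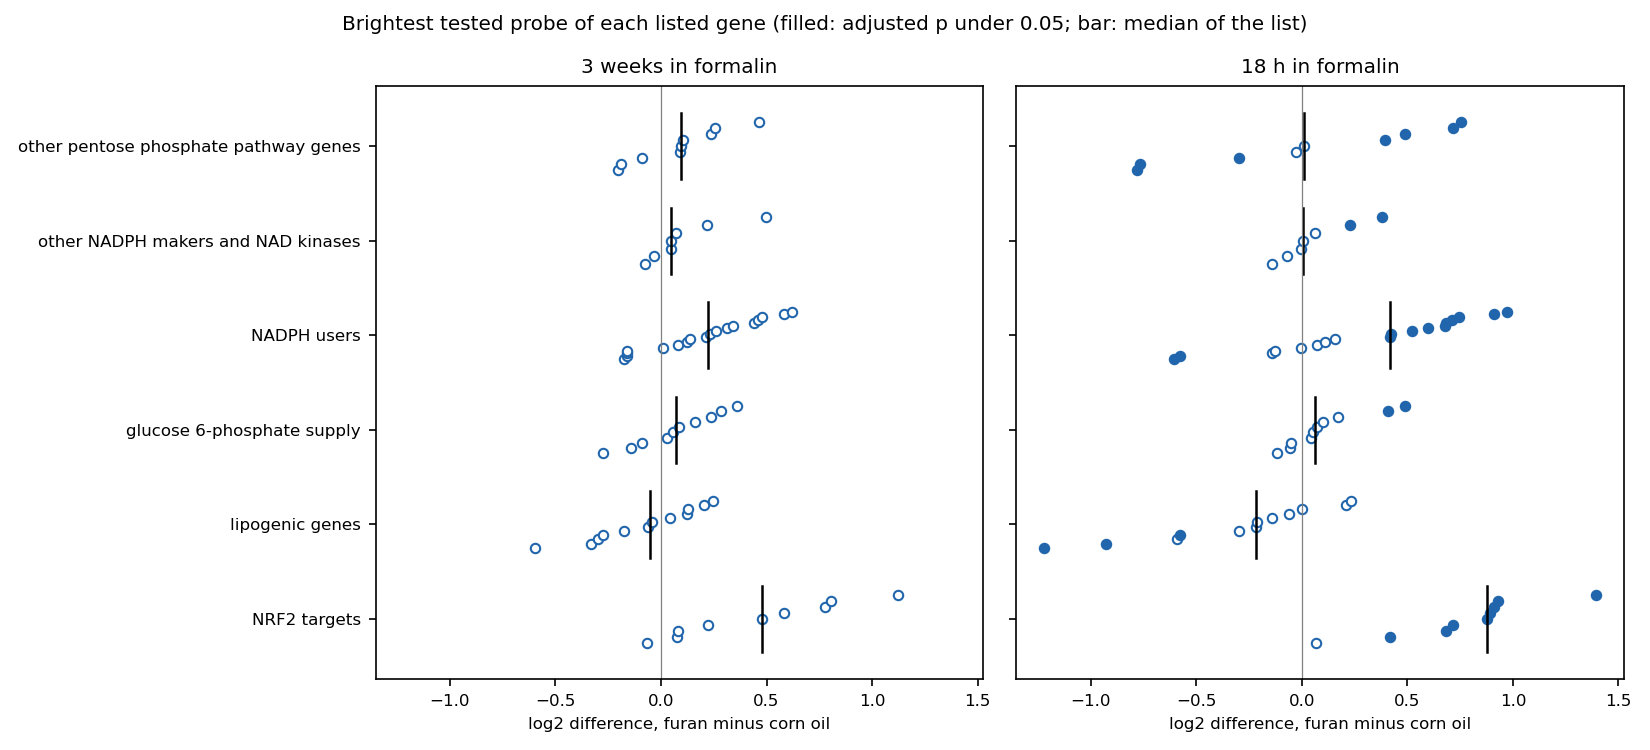
Log2 difference of furan minus corn oil (horizontal axes) for the brightest tested probe of each gene on the 6 lists, at 3 weeks (left) and 18 h in formalin (right); each point is 1 gene, filled points passed the adjusted threshold, and the bar is the list median. At 18 h the NRF2 targets have a median of 0.88 and the lipogenic genes one of -0.22, and no point is filled at 3 weeks.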

How the data were processed

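Livers of furan and corn oil mice were measured at 3 weeks and 18 h in formalin on 16 Agilent two-colour arrays. These lay on 2 slides, with the 4 groups spread evenly over both. The authors extracted the scans using Agilent Feature Extraction 11.0.1.1, per the file headers. Median signals of each spot and of its background stand in the deposited scanner files as intensity, not normalized. Those files also hold a sample over reference ratio on the log10 scale, per the file headers. The labels put the liver sample in Cy5 and a pool of all samples in Cy3, with no dye swap. The deposited value table holds log2 ratios normalized by the authors in a way not given in the sources used here. Setting it against the scanner files settled its scale and direction, and it was used for 1 alternative. Medians of its columns were -0.00715, -0.00825, -0.00445 and -0.00133 for 3-week furan arrays 41 to 44, -0.00872, -0.00919, -0.00159 and -0.00869 for 3-week corn oil arrays 2.1, 2.2, 4 and 6, 0.0247, 0.0204, 0.0163 and 0.0187 for 18 h furan arrays 41 to 44, and 0.000797, 0.00330, -0.00510 and 0.00438 for 18 h corn oil arrays 2, 3, 4 and 6. Its columns 2.1 and 2.2 correlated at 0.969 and 0.975 with the scanner file of the other and at 0.863 and 0.856 with their own. Both arrays enter the tests as 1 mean, so this touches no main value.

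The normexp method (offset 50) corrected for background, and loess with control spots at weight 0 normalized the ratios of each array. Outlier spots were dropped, and a probe took the mean of its spots. Testing was limited to probes whose Cy5 signal was well above background on 3 or more arrays of any group. R 4.3.3 with limma 3.58.1 fitted every tested probe with the slide as a term (lmFit and eBayes), two-sided, adjusted by Benjamini-Hochberg over all 29690 tested probes at a threshold of 0.05. Each furan comparison was fitted on the samples of 1 time, and the difference and the time comparisons on all 15 samples. Arrays 2.1 and 2.2 correlated at 0.923 over tested probes. The number of arrays limits the precision. The p-values rest on the spread between these samples, with the variance of each probe drawn by limma towards that of all tested probes. For Tkt at 3 weeks the SDs were 0.02 in furan and 0.03 in corn oil livers, while the SE was 0.12. The file headers name build mm9. Accessions led to a RefSeq symbol (GRCm38.p6) for 27235 probes and to none for 28446. Promoters were searched and figures drawn with Python 3.11.15, pandas 2.3.3 and matplotlib 3.10.9. The fits were tested on simulated data.

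The members, the lists and the alternatives were chosen with earlier results of these data known. From each list up to 4 genes with the smallest p in each furan comparison were named, and for each member the 2 genes with the highest r. One gene that this rule names is not reported here. Same-numbered samples of the 2 times deviated together only weakly, with correlations of 0.0183 to 0.182, not all above 0.1, so numbers were not treated as pairs. Most of these correlations were above the highest with any other number, such as 0.182 against 0.096 for corn oil 4. Those of corn oil 6 (0.0292 against 0.0458) and furan 44 (0.0183 against 0.0206) were not. The fits on all 15 samples took the samples as independent. Alternatives covered background, normalization, the scanner's and the authors' ratios, filters, 1 probe per gene, slides, the variance model, arrays 2.1 and 2.2, shared fits, a replicate block and leaving out each replicate.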

Additional observations from a re-analysis of the deposited data

Results flagged for a closer look

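H6pd stood out because its furan effect differed between the times in formalin by the test of the difference itself, at -0.58 on the log2 scale for 3 weeks minus 18 h (SE 0.14, limma adjusted p = 0.0155). Idh1 stood out for the same reason with the opposite sign, at 0.89 (SE 0.17, limma adjusted p = 0.00437). In both genes the furan effect was the smaller one at 3 weeks, where every group had fewer probes above background than at 18 h. The part of the time in formalin, of the number of sections and of signal strength in these differences was not tested. In 30 groups of 4 samples, no member probe had a sample far from the others by Dixon's test, of which about 1 in 20 would be picked out by chance.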

How the results depend on the processing

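Among the members, H6pd and Idh1 at 18 h kept direction and call under every alternative run, with adjusted p up to 0.0176 and 0.0252, and no called member reversed. The probes called at 18 h numbered 14026, against 8147 on slide 1 alone and 7032 on slide 2 alone. At 3 weeks 36 were called, against 439 without background subtraction, 2316 with median centring, 0 with the scanner's log ratio (3564 with unadjusted p under 0.05), 312 with the deposited table, 72 without the slide term, 20 with a trended and robust variance, 0 on slide 1 alone (2188 unadjusted) and 261 on slide 2 alone, 321 with arrays 2.1 and 2.2 apart and 1300 with all groups in 1 fit. Leaving out single samples gave 0 (without corn oil liver 6, 3223 unadjusted) to 768 (without corn oil liver 4, 102 higher and 666 lower). The difference of the furan effects had 3793 calls, against 2286 with the scanner's log ratio, 2224 without the filter, 0 on slide 1 alone (5756 unadjusted) and 1 on slide 2 alone (all by limma). With median centring 2 list genes turned at 18 h, Aldh1l1 to 0.47 and Fbp1 to 0.43.

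Median centring moved the median of all tested probes to 0.10 at 18 h (main -0.05), to -0.24 for time in corn oil livers (main 0.00) and to -0.29 in furan livers (main 0.03). The share of calls that were higher became 78.6% at 18 h (main 43.2%), 89.9% for furan at 3 weeks (main 72.2%), 27.5% for the difference (main 61.2%), 24.5% for time in corn oil (main 48.1%) and 23.3% in furan livers (main 52.3%). With the deposited table it was 55.0% at 18 h, 53.8% at 3 weeks and 44% for the difference. At 3 weeks it was 46.0% without background subtraction, 62.5% without the slide term, 90.0% with the trended variance, 11.1% on slide 2 alone, 37.1% with arrays 2.1 and 2.2 apart and 51.2% in the shared fit. The cause was not tested. The share of probes above background at 18 h stayed 5.43 to 7.36 points higher with furan when a sample was left out, with exact p up to 0.0857 where 3 furan livers remained, and at 3 weeks 2.73 to 4.59 points.

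With the sample number as a replicate block (correlation 0.0273) the calls were 3964 for the difference, 17767 for time in corn oil livers and 20065 in furan livers, against 3793, 17623 and 19937 without it. Most sample numbers, but not all, correlated best with their own number. Dim probes limit G6pdx, Me1 probe 3 and Rpia most.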
